A study of Trichoderma reesei with 8 samples.

Results

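Transcript levels of 7 membrane transporter genes of the filamentous fungus *Trichoderma reesei* were followed in light and darkness in the wildtype and in a strain lacking the transcription factor gene *ypr2*. The genes were chosen by protein ID out of 9143 genes in the table: 82321 (an aquaporin), 44956, 2068, 60889 and 119789 (permeases of the major facilitator superfamily, MFS), 54865 (a permease annotated as a methionine permease) and 44278 (an oligopeptide transporter). They had been selected on the effect of the deletion in these same libraries. Their values in the deletion contrasts, with any call or interval given for them, are therefore descriptions here and not evidence of an effect. The cultures were wildtype QM6a in constant light, QM6a in constant darkness, ∆*ypr2* in constant light and ∆*ypr2* in constant darkness, with light at 1600 lx and 2 biological replicates in each group. All 8 cultures came from precultures kept for 14 days in darkness and were grown for 72 h at 28 °C in liquid minimal medium with 1% cellulose and 0.1% peptone, and dark cultures were harvested under red safety light. RNA came from whole mycelium of a deletion strain made in earlier work, and no strain with *ypr2* put back was analysed here, so an effect of the deletion cannot be told apart from other differences between these 2 strains. The study reported far less biomass in ∆*ypr2* than in the wildtype in darkness, and no significant difference in light. The part of growth in the levels of the 7 genes was not tested.

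Membrane transporters set what a hypha can take up from its medium and what it can release. Carriers of the major facilitator superfamily move sugars, organic acids, iron chelates or drugs across a membrane along or against an ion gradient, and the substrate of a member cannot be read from its family alone. Aquaporins are channels for water and in some cases for glycerol and other small uncharged solutes. The yeast protein Mup1p, to which the product of TR_54865 is related, is a high-affinity permease for methionine in *Saccharomyces cerevisiae*, and carriers of the oligopeptide transporter family take up short peptides or related metal chelates in fungi and plants. In *T. reesei*, as in other ascomycetes, light is a signal that changes the transcription of genes for substrate use.

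Library totals ran from 16.9 to 22.9 Mio expected counts. Levels are given in CPM, the counts per Mio of the scaled library total, where 1 count corresponds to 0.0438 to 0.0579 CPM. The transcript of *ypr2* (TR_102497) had between 548 and 3040 expected counts in the 4 wildtype libraries and between 0 and 10 in the 4 libraries from ∆*ypr2*, as the labels say. Differences between replicates exceeded sampling noise in each group, the chi-square over its degrees of freedom being smallest in wildtype light (6.15) and largest in ∆*ypr2* darkness (36.0).

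Between genes, levels were compared as CPM per kilobase of gene span, where the span runs from start to end in the RefSeq table of assembly v2.0 and includes introns. In the wildtype in light the oligopeptide transporter gene TR_44278 came first with 410 ± 11.1 CPM per kilobase (mean ± SD, n = 2), followed by TR_119789 with 327 ± 3.76 and TR_44956 with 264 ± 3.86. These 3 genes lay at percentiles 95.5 to 97.2 of all genes tested. TR_60889 stood far below them at 17.03 ± 0.627 CPM per kilobase, and TR_54865, TR_82321 and TR_2068 closed the order at 0.754 ± 0.0770, 0.190 ± 0.00722 and 0.0953 ± 0.0481 CPM per kilobase, at percentiles of 7.4, 3.0 and 2.1. In wildtype darkness the same 3 genes led the order, TR_44278 with 180 ± 10.3, TR_44956 with 62.7 ± 1.15 and TR_119789 with 55.4 ± 0.553 CPM per kilobase. In ∆*ypr2* darkness TR_44956 took the first place with 607 ± 5.33 CPM per kilobase, at percentile 98.0, above TR_44278 with 412 ± 5.01 and TR_119789 with 145 ± 5.66. The aquaporin gene came next there at 71.6 ± 13.3 CPM per kilobase, at percentile 78.6 instead of 8.6 in wildtype darkness. The order in ∆*ypr2* light was that of wildtype light. Over the 4 groups, genes next to each other in the order did not overlap between libraries, with 3 exceptions. TR_2068 and TR_60889 overlapped in wildtype darkness, TR_82321 and TR_2068 in ∆*ypr2* light, and TR_2068 and TR_54865 in ∆*ypr2* darkness.

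**Figure D1:**
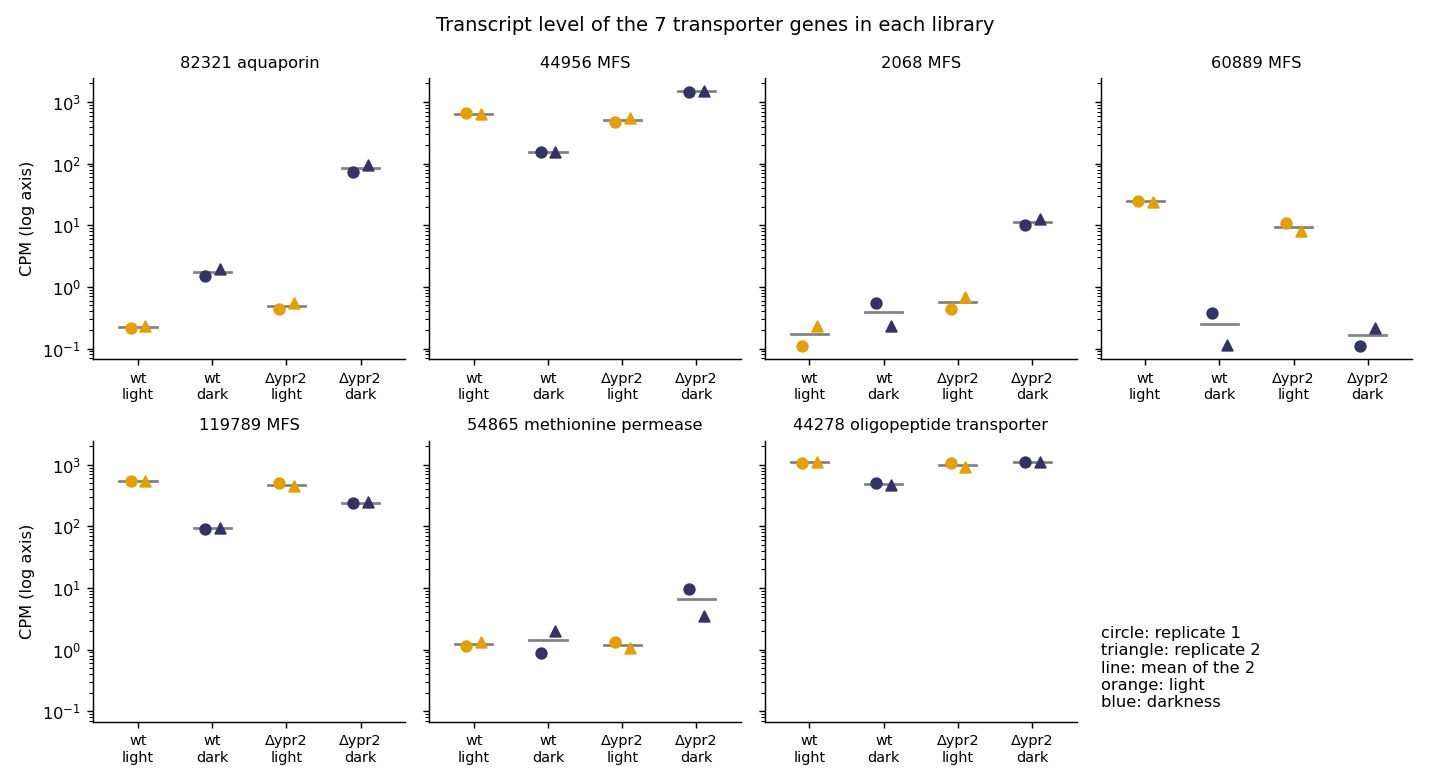
Transcript level in CPM (log axis) of each of the 7 genes in each of the 8 libraries, by strain (wt, wildtype) and light condition, with circles and triangles for replicates 1 and 2 and grey lines for their mean. TR_82321, TR_2068 and TR_54865 have their highest values in ∆*ypr2* darkness, TR_60889 has counts mainly in light, and TR_44956, TR_119789 and TR_44278 are well above 50 CPM in every library.

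The aquaporin gene TR_82321 (scaffold 35, 30113 to 31295, a span of 1183 bases) was near the detection limit in light. Its levels were 0.219 and 0.231 CPM in wildtype light, 0.446 and 0.547 in ∆*ypr2* light, 1.52 and 1.97 in wildtype darkness, and 73.6 and 95.8 in ∆*ypr2* darkness. The groups did not overlap, and both libraries from ∆*ypr2* darkness stood far above the other 6. In darkness the log2 fold change between ∆*ypr2* and wildtype was 5.60 ± 0.18 (± standard error), a fold of 48.6, while in light it was 1.14 ± 0.65 on 20 against 8 counts over the group, a ratio of 2.23 with a 95% interval of 0.942 to 5.86. This interval and those given for other low counts are exact binomial (Clopper-Pearson) intervals on the summed counts and cover counting error only. In RNA from whole mycelium, more cells that use a gene and more transcript per cell cannot be told apart. Light against darkness was not itself among the contrasts that chose the genes, but it uses the same dark libraries. A gene chosen for a high level in ∆*ypr2* darkness is pushed towards a negative light contrast in ∆*ypr2*, so that contrast is given without a p. A low level in wildtype darkness or a high one in wildtype light pushes the contrast of the wildtype upwards. A rise in light in the wildtype is therefore given without a p as well. For the aquaporin gene the log2 fold change of light against darkness was -2.92 ± 0.50 in the wildtype (edgeR, adjusted p = 0.00047), a call that was lost at -1.86 with quantile normalization and limma voom, and -7.39 ± 0.21 in ∆*ypr2*.

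The MFS gene TR_2068 (scaffold 1, 2822506 to 2824290, a span of 1785 bases) had the lowest level of the 7 in the wildtype in light and a shape like that of the aquaporin gene. Its expected counts were 2 and 4 in wildtype light, 10.18 and 4 in wildtype darkness, 8 and 15 in ∆*ypr2* light, and 185 and 286 in ∆*ypr2* darkness. The last group was far above the others, at 11.3 ± 1.75 CPM (SD, n = 2), while the wildtype libraries held between 0.109 and 0.543 CPM. In darkness the deletion contrast was 4.83 ± 0.31 on the log2 scale. The summed counts, 471 against 14, gave a ratio of 29.1 with an interval of 17.2 to 53.7. Without replicate 1 of wildtype darkness this log2 value was 5.57. In light the deletion strain held 23 counts and the wildtype 6, a ratio of 3.42 (1.36 to 10.3), and the gene was not called. Light against darkness gave a log2 fold change of -4.28 ± 0.28 in ∆*ypr2*. In the wildtype the same contrast gave -1.19 ± 0.70 (edgeR, adjusted p = 0.14) on 6 and 14 counts, and the interval of the ratio of darkness to light on these counts ran from 0.841 to 7.40. Leaving out 1 library moved this log2 value from -0.45 without replicate 1 of wildtype darkness to -1.78 without replicate 2 of wildtype light.

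For the methionine permease gene TR_54865 (scaffold 1, 1966958 to 1968599, a span of 1642 bases) the replicates disagreed in both dark groups. The expected counts were 21 and 23 in wildtype light, 24 and 23 in ∆*ypr2* light, 16 and 35 in wildtype darkness, and 179 and 80 in ∆*ypr2* darkness. Both libraries of the last group were above the other 6, but its replicates differed 2.78-fold in CPM (9.73 and 3.50) and those of wildtype darkness 2.33-fold (0.869 and 2.03). The log2 fold change of the deletion in darkness was 2.17 ± 0.51, and it was 1.29 without replicate 1 and 2.77 without replicate 2 of ∆*ypr2* darkness. It was 1.67 without replicate 1 of wildtype darkness, in which case the gene was no longer called, and 2.89 without replicate 2. In light the deletion contrast was -0.06 ± 0.68, with overlapping libraries. Light against darkness in ∆*ypr2* gave -2.45 ± 0.52, and the call was lost without replicate 1 or without replicate 2 of ∆*ypr2* light (log2 fold changes of -2.62 and -2.28). Its size also rested on the dark libraries, with -1.57 without replicate 1 and -3.04 without replicate 2 of ∆*ypr2* darkness. In the wildtype the light contrast was -0.21 ± 0.67 (edgeR, adjusted p = 0.78), with overlapping libraries, and it changed sign without replicate 2 of wildtype darkness (0.50).

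TR_44956 (scaffold 2, 1176999 to 1179447, a span of 2449 bases), an MFS permease gene, was abundant in all groups, with light responses of opposite sign in the 2 strains. It was measured at 653 and 639 CPM in wildtype light, 152 and 156 in wildtype darkness, 475 and 544 in ∆*ypr2* light, and 1478 and 1497 in ∆*ypr2* darkness. No 2 groups overlapped. The transcript was higher in light in the wildtype, by a log2 fold change of 2.07 ± 0.07, and in ∆*ypr2* the same contrast was -1.55 ± 0.07. The deletion contrast was 3.28 ± 0.08 in darkness and -0.34 ± 0.07 in light. With 1488 ± 13.1 CPM it ranked 73 of 8469 tested genes by CPM in ∆*ypr2* darkness, after rank 1448 in wildtype darkness and 234 in wildtype light.

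TR_119789 (scaffold 1, 1959009 to 1960677, a span of 1669 bases), another MFS permease gene, kept its light response in the deletion strain in direction but at a smaller size. The libraries held 550 and 541 CPM in wildtype light, 91.7 and 93.0 in wildtype darkness, 495 and 450 in ∆*ypr2* light, and 235 and 249 in ∆*ypr2* darkness. Replicates lay close together and the groups were apart. The log2 fold change of light against darkness was 2.56 ± 0.07 in the wildtype and 0.96 ± 0.06 in ∆*ypr2*, the latter just under the 2-fold limit of a call. It passed that limit, at 1.03 and 1.00, without replicate 2 of ∆*ypr2* light or of ∆*ypr2* darkness. Deletion of *ypr2* went with a log2 fold change of 1.39 ± 0.07 in darkness and of -0.21 ± 0.06 in light.

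TR_44278 (scaffold 1, 2343169 to 2345858, a span of 2690 bases), assigned to the oligopeptide transporter family, was the most abundant of the 7 genes in 3 of the 4 groups. Its levels were 1081 and 1123 CPM in wildtype light, 504 and 465 in wildtype darkness, 1051 and 929 in ∆*ypr2* light, and 1117 and 1097 in ∆*ypr2* darkness. Wildtype darkness was the low group, and the other 3 lay within 929 to 1123 CPM. The light response of the wildtype was 1.19 ± 0.08 (log2 fold change), and in ∆*ypr2* it was -0.16 ± 0.07. In darkness the deletion contrast was 1.19 ± 0.08 and in light it was -0.15 ± 0.07.

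The MFS permease gene TR_60889 (scaffold 8, 314239 to 315671, a span of 1433 bases) was the exception among the 7. It had 458 and 412 expected counts in wildtype light and 195 and 178 in ∆*ypr2* light, but 7 and 2 in wildtype darkness and 2 and 5 in ∆*ypr2* darkness. The 2 strains overlapped in darkness, where the summed counts of 7 (∆*ypr2*) and 9 (wildtype) gave a ratio of 0.673 with an interval of 0.213 to 2.03, so that a difference between the strains was not detectable at this depth. The fitted value in darkness, -0.55 ± 0.78, became 0.52 without replicate 1 of wildtype darkness. In light ∆*ypr2* held 9.49 ± 1.94 CPM and the wildtype 24.4 ± 0.899, or 38.9% of the wildtype level, with a log2 fold change of -1.37 ± 0.17. This call was lost when replicate 1 or replicate 2 of wildtype light or replicate 2 of ∆*ypr2* light was left out (-1.33, -1.41 and -1.17). The transcript was higher in light in the wildtype, by a log2 fold change of 6.56 ± 0.30, and the contrast in ∆*ypr2* was 5.74 ± 0.35. On summed counts these were ratios of 96.8 (50.8 to 212) and 55.1 (26.5 to 138), and with so few counts in darkness the log2 value of the wildtype ran from 5.98 without replicate 2 to 7.64 without replicate 1 of wildtype darkness, and that of ∆*ypr2* was 6.35 without replicate 2 of ∆*ypr2* darkness.

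Of the 7 genes, 6 were called higher in ∆*ypr2* in darkness and 0 lower, where a call needs an adjusted p under 0.01 and a change of at least 2-fold. Over all genes tested 9.68% were called higher and 6.05% lower in this contrast, or 820 and 512 genes, and the split depended on the scaling (682 and 673 genes with quantile normalization and limma voom). In light 1 of the 7 was called lower (TR_60889) and 0 higher, beside 0.142% and 0.378% of all genes. These contrasts chose the genes, so the counts say nothing further about them. Within the list the log2 fold changes in darkness ran from 1.19 (TR_44278) to 5.60 (TR_82321) among those called, and TR_44278 and TR_119789 were the called genes nearest to the 2-fold limit.

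**Figure D2:**
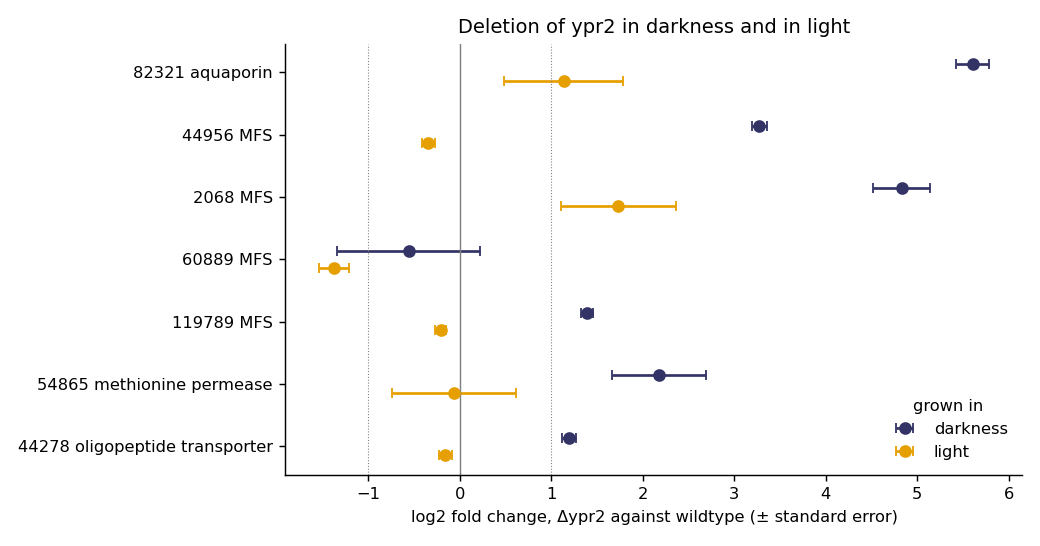
Log2 fold change of ∆*ypr2* against the wildtype for each of the 7 genes in darkness (blue) and in light (orange), with bars of ± 1 standard error and dotted lines at the 2-fold limits. In darkness 6 genes lie above the upper limit, between 1.19 and 5.60, while in light TR_60889 lies below the lower limit, at -1.37, and TR_82321 and TR_2068 lie above the upper one with wide bars, on few counts, and were not called.

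In the wildtype, 4 of the 7 genes were called higher in light (TR_44956, TR_60889, TR_119789 and TR_44278), against 9.4% of all genes, and 1 was called lower (the aquaporin gene TR_82321, not called with quantile normalization), against 14.4%. The 6 genes chosen for a rise from wildtype darkness are favoured to be higher in light by that choice, and so is TR_60889, chosen for a wildtype level in light above that of ∆*ypr2*. With quantile normalization, which moved the median of all genes by 0.12 in both light contrasts, the split over all genes was 1071 higher and 1046 lower instead of 796 and 1223. The median log2 fold change of light against darkness was 1.19 over the 7 genes and 0.005 over all genes tested. In ∆*ypr2* the direction follows in part from the choice of genes that are high in ∆*ypr2* darkness, and the counts are a description. Here 1 gene was called higher in light (TR_60889; 3.81% of all genes) and 4 lower (TR_82321, TR_44956, TR_2068 and TR_54865; 13.3% of all genes), with a median of -1.55 over the 7 genes and -0.003 over all genes. The split over all genes was 630 higher and 822 lower with quantile normalization, instead of 323 and 1123. The difference between the 2 light responses of a gene equals the difference between its 2 deletion effects, which were among the values that chose the genes, and is therefore given without a test. It was -3.62 ± 0.10 on the log2 scale for TR_44956, -1.60 ± 0.09 for TR_119789, -1.35 ± 0.11 for TR_44278, -4.47 ± 0.90 for TR_82321, -3.10 ± 0.91 for TR_2068, -2.24 ± 0.87 for TR_54865 and -0.82 ± 0.81 for TR_60889.

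**Figure D3:**
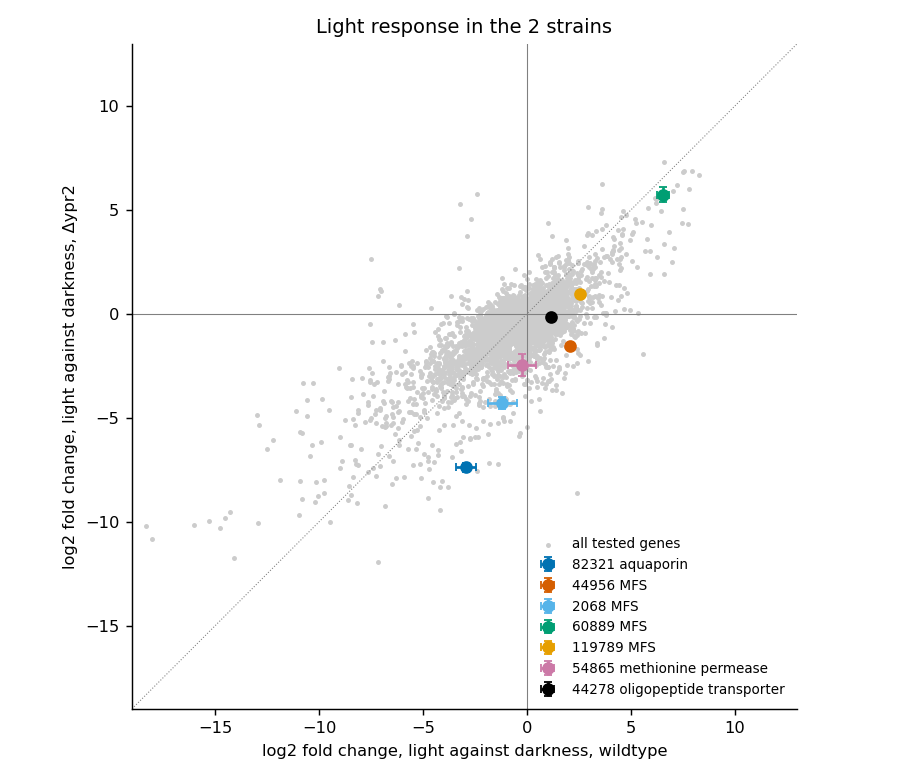
Log2 fold change of light against darkness in ∆*ypr2* (vertical axis) against that in the wildtype (horizontal axis) for all tested genes (grey) and the 7 transporter genes (coloured, with bars of ± 1 standard error); the dotted line marks equal responses. All 7 lie below the line, TR_60889 nearest to it, and TR_44956 lies at 2.07 in the wildtype and -1.55 in ∆*ypr2*.

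Set beside the light level of the wildtype, the levels in ∆*ypr2* darkness fell into different ranges. TR_44278 was at 100.4% of its mean level in wildtype light, with overlapping libraries. TR_119789 reached 44.4% of that level and TR_44956 exceeded it 2.30-fold. The genes that were scarce in light went much further, to 5.35-fold for TR_54865, 66.4-fold for TR_2068 (on 6 counts over wildtype light) and 377-fold for TR_82321 (on 8 counts). TR_60889 stayed at 0.671% of its wildtype light level. These are ratios of mean CPM, given as descriptions.

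Along the genome the 7 genes were spread over scaffolds 1, 2, 8 and 35 of assembly v2.0, with 4 of them on scaffold 1. The genes TR_119789 and TR_54865 had a single gene between them (TR_102906), and their spans were 6280 bases apart. No gene span overlapped that of a member among the 3 neighbours on each side, the smallest gap being 78 bases (TR_82321 to TR_112230). The sources used here do not say whether reads were counted by strand. These 3 genes on each side made 37 neighbours that are not among the 7, of which 35 were tested. In ∆*ypr2* darkness 10 of the 35 were called higher and 2 lower, beside the 9.68% and 6.05% of all genes. In light 1 was called higher (TR_74282) and 0 lower.

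TR_2068 had the most neighbours called. Of its 6 neighbours 5 were tested and all 5 were called higher in ∆*ypr2* in darkness. TR_74282, which comes 2 places before TR_2068 in the order of the annotation, encodes a homologue of the cell wall protein QID74 of *T. harzianum* and rose to 34546 and 42773 CPM in ∆*ypr2* darkness from 1254 and 1484 CPM in wildtype darkness, with a log2 fold change of 4.82 ± 0.25 (edgeR, adjusted p = 3.4e-07). This size was close to the 4.83 ± 0.31 of TR_2068 itself, 4685 bases away. The gene between them, TR_103153, annotated as an orphan, had 27 and 20 counts in wildtype darkness and 232 and 263 in ∆*ypr2* darkness. On the other side, TR_103156, a gene of unknown function, had 5 and 2 counts in wildtype darkness, 111 and 137 in ∆*ypr2* darkness, and 0 to 1 in each library from light. TR_44366, annotated as a phospholipase C, and TR_103157 were higher in ∆*ypr2* darkness by log2 fold changes of 1.82 ± 0.08 and 1.52 ± 0.08.

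Next to the oligopeptide transporter gene TR_44278, 3 of 6 neighbours were called higher in ∆*ypr2* darkness. They were TR_103009, of unknown function, with 2.28 ± 0.380 CPM in wildtype and 107 ± 27.9 CPM in ∆*ypr2* darkness, TR_53824, encoding an unknown secreted protein, with 3.10 ± 0.296 and 31.9 ± 7.94 CPM, and TR_74194, annotated as *lxr1*, with 54.0 ± 8.30 and 420 ± 2.99 CPM. TR_54372 lies between TR_44278 and TR_74194 and gave a log2 fold change of 0.03 in the same contrast. Around TR_119789 and TR_54865 the gene TR_102906 was called higher (1.08 ± 0.28), and TR_102908 and TR_102909 on the far side of TR_54865 were called lower, by -1.14 ± 0.07 and -1.84 ± 0.11. TR_44956 had 1 called neighbour, TR_2358, a gene with a HIT domain, at 1.25 ± 0.10. The aquaporin gene and TR_60889 had 0 called neighbours within 3 genes on either side. Beside TR_60889, however, TR_121579 (-0.97 ± 0.07), TR_77481 (0.97 ± 0.14) and TR_77478 (-0.91 ± 0.07) lay just under the 2-fold limit.

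**Figure D4:**
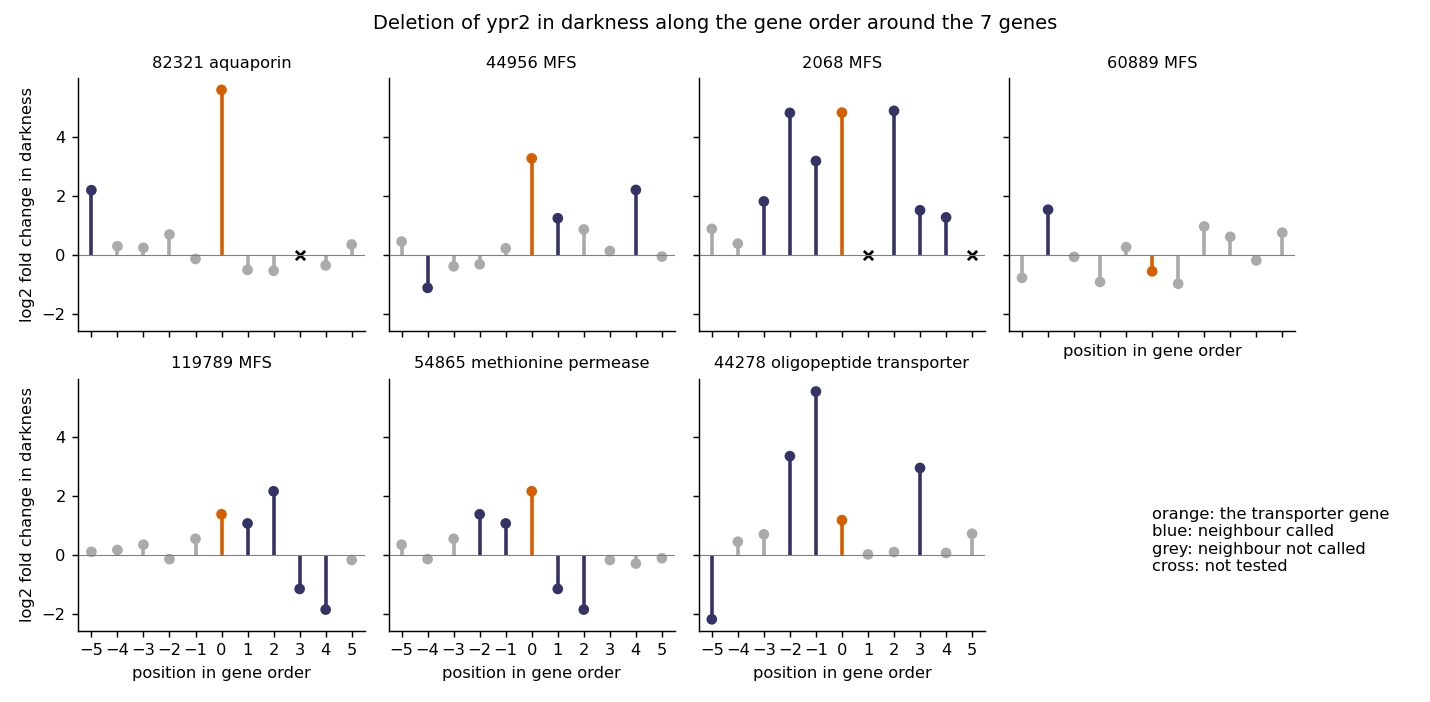
Log2 fold change of ∆*ypr2* against the wildtype in darkness (vertical axis) for the 5 genes on each side of each transporter gene in the order of the RefSeq table (horizontal axis, the transporter gene at 0), with called neighbours in blue and untested genes as crosses. Values near 4.8 stand on both sides of TR_2068, while TR_82321, at 5.60, has tested neighbours between -0.53 and 0.70 within 3 places.

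Over the 8 libraries, which are 4 groups of 2 and share the same cultures for all genes, the log2 CPM values of the 7 genes fell into related shapes. Pearson's r, given as a description, was 0.971 between TR_82321 and TR_2068, and TR_54865 had 0.871 with TR_82321 and 0.837 with TR_2068. It was 0.898 between TR_44956 and TR_44278, 0.866 between TR_119789 and TR_44278, and 0.855 between TR_60889 and TR_119789. It was lowest between TR_82321 and TR_60889, at -0.744. These values are on the scale log2(CPM + 0.5). The genes with the highest r for each member were taken from those with a mean of at least 5 CPM over the 8 libraries. For the aquaporin gene these were TR_59778 (r = 0.998) and the cytochrome P450 gene TR_64900 (r = 0.998). Pearson's r compares shape and not the size of a change. In wildtype and ∆*ypr2* darkness TR_59778 stood at 45.8 ± 0.798 and 71.6 ± 1.85 CPM, and TR_64900 at 0.784 ± 0.0439 and 22.3 ± 1.14 CPM. TR_64900 reached the mean of 5 CPM only through ∆*ypr2* darkness, so its likeness follows in part from that limit. For TR_44956 they were TR_123888, annotated as similar to *hypA* of aflatoxin biosynthesis (r = 0.998), and the tandem repeat protein gene TR_122047 (r = 0.996). TR_4941, annotated as the acyl-CoA synthetase gene *faa2*, was nearest to TR_119789 (r = 0.999), followed by TR_65179 (r = 0.998). The nearest genes were TR_79300 and TR_78792 for TR_2068 (r = 0.996 and 0.995), TR_55213 and TR_58899 for TR_60889 (0.998 for both), and TR_46244 and TR_74453 for TR_44278 (0.994 for both). Some of them changed far less than their member. TR_79300 stood at 114 ± 2.84 CPM in wildtype and 210.5 ± 8.46 CPM in ∆*ypr2* darkness. TR_55213 stood at 37.2 ± 0.610 CPM in wildtype light and 19.9 ± 1.08 CPM in wildtype darkness.

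The methionine permease gene TR_54865 had few close matches, with 9 genes above an r of 0.95, where the other 6 had between 158 and 695. Its nearest gene was an MFS permease gene, TR_65583 (r = 0.988), with 528 and 93 counts in the replicates of ∆*ypr2* darkness and 13 and 58 in those of wildtype darkness. The next was TR_44987, encoding a sterol desaturase-like protein (r = 0.971), at 355 and 157 CPM in ∆*ypr2* darkness and 100.1 and 123 CPM in wildtype darkness. All 3 genes were higher in replicate 1 of ∆*ypr2* darkness and in replicate 2 of wildtype darkness. The matches were picked by r over single libraries, so a shared difference between replicates follows in part from that choice. TR_65583, like TR_64900, passed the limit on the mean CPM only through ∆*ypr2* darkness. Its group mean was 16.4 CPM there and 2.03 CPM or less in the other groups. The likeness of TR_65583 to TR_54865 therefore follows in part from that limit.

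Other transporter genes were taken from the genes that the study annotated in its own list of regulated genes. The list holds 89 transporter genes including the 7, was chosen by the deletion effect in these same libraries and was used in a shortened copy, so its counts in the deletion contrasts follow from the choice, and those in the light contrasts, which use the same dark libraries, follow from it in part. Among the 82 others 62 were called higher and 17 lower in ∆*ypr2* darkness, beside 9.68% and 6.05% of all genes. In the wildtype 26 of the 82 were called higher in light and 21 lower, beside 9.4% and 14.4% of all genes, with a median log2 fold change of 0.66. In ∆*ypr2* 9 were called higher and 33 lower, beside 3.81% and 13.3% of all genes, with a median of -0.73. The 44 other MFS genes had medians of 0.70 in the wildtype and -0.81 in ∆*ypr2*. In ∆*ypr2* darkness 34 of these 44 were called higher and 8 lower. Of the 10 other amino acid permease genes 8 were called higher and 2 lower in that contrast, and of the 6 ABC transporter genes 3 were called higher and 3 lower. The 19 transporter genes of other kinds, among them metal and calcium transporter genes, counted 15 higher and 3 lower.

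In CPM, not divided by length, other transporter genes on the list reached higher levels than any of the 7. The MFS gene TR_3405, a putative lactose permease gene, reached 12376 ± 386 CPM in wildtype darkness, and TR_44175, annotated as a general substrate transporter gene, 5286 ± 458 CPM in wildtype light. The other called MFS genes with the largest rises in ∆*ypr2* darkness were TR_62380 (log2 fold change 4.32 ± 0.15), TR_105260 (3.68 ± 0.14) and TR_28036 (3.49 ± 0.22), beside 4.83 ± 0.31 for TR_2068 and 3.28 ± 0.08 for TR_44956. The largest falls among the other MFS genes were those of the siderophore transporter gene TR_71008 (-6.52 ± 0.24), the *SOR4* multidrug transporter gene TR_43701 (-3.99 ± 0.20) and TR_62488 (-1.78 ± 0.08). The other aquaporin gene on the list, TR_105870, rose with TR_82321 in ∆*ypr2* darkness, to 22.3 ± 2.96 from 4.19 ± 0.387 CPM, but stood at 7.96 ± 0.660 CPM in wildtype light, where TR_82321 was near 0. Among amino acid permease genes, TR_123718 rose most in ∆*ypr2* darkness (3.62 ± 0.19), beside 2.17 ± 0.51 for TR_54865. The other permease gene annotated as related to Mup1p, TR_60144, went opposite to TR_54865, with 0.872 ± 0.158 CPM in wildtype and 0.0981 ± 0.0149 CPM in ∆*ypr2* darkness. TR_46794, also annotated as an oligopeptide transporter gene, held 1554 ± 1.60 CPM in wildtype light, 222 ± 16.02 in wildtype darkness and 776 ± 76.5 in ∆*ypr2* darkness. In the same groups TR_44278 held 1102, 484.5 and 1107 CPM. TR_80879, annotated as a proton-coupled oligopeptide transporter gene, fell instead, by a log2 fold change of -2.42 ± 0.12. It shares an annotated protein domain with TR_46794.

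Markers of conidiation moved with the deletion in darkness beside these genes. Of 7 markers, a list that the study chose on these samples, 6 were called higher in ∆*ypr2* darkness and 1 lower (*medA*), beside 9.68% and 6.05% of all genes. In the wildtype 4 were called higher in light and 1 lower, beside 9.4% and 14.4% of all genes. These counts follow at least in part from the choice of the list. The marker *dtr1* (TR_102953) is also counted among the other MFS genes above. Their summed level was 1167 to 1199 CPM in wildtype darkness, 1721 to 1770 in ∆*ypr2* darkness, 1846 to 1912 in wildtype light and 1576 to 1616 in ∆*ypr2* light. *MedA* held most of the sum in wildtype darkness, and the other 6 markers summed to 99.7 to 103 CPM there, 1179 to 1259 in ∆*ypr2* darkness, 1614 to 1689 in wildtype light and 1283 to 1291 in ∆*ypr2* light. Most of this 6-marker sum was *ccg-1*, at 1532 ± 39.1 CPM in wildtype light and 1182 ± 19.1 in ∆*ypr2* light. Between wildtype light and ∆*ypr2* darkness the 6 markers split. The markers *ccg-1*, *con-10* and *dtr1* were higher in the former. In the latter *con-13*, *ccg-13* (45.65 ± 7.81 and 120.7 ± 22.5 CPM) and *ccg-14* (18.8 ± 3.77 and 61.8 ± 18.8 CPM) were higher. Among the defining markers *con-13* was at or near 0 in both strains in light (0.0289 ± 0.0408 CPM in the wildtype) and at 4.75 ± 0.341 CPM in ∆*ypr2* darkness, and *ccg-1* rose from 60.1 ± 7.47 to 1005 ± 18.4 CPM between wildtype and ∆*ypr2* in darkness. The part of conidiating cells in the levels of the 7 transporter genes was not tested.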

How the data were processed

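RNA of 8 cultures had been sequenced as single reads, and per the labels and the methods of the study the authors mapped them with Bowtie2, used SAMtools and bedtools, and ran RSEM for transcript values (versions: not given in the sources used here). Their deposited table is named FPKM, but its values are expected counts, which are mostly whole numbers and sum to different totals. They were rounded to whole numbers. Of 9143 genes, 8469 had at least 0.5 CPM in at least 2 libraries and were tested, including all 7 transporter genes, and 674 were left out. Contrasts were tested two-sided with edgeR 4.0.16 (quasi-likelihood F test; R 4.3.3), TMM factors, a prior count of 0.125 and a single fit of 8 libraries in 4 groups (4 residual degrees of freedom). Adjusted p values are Benjamini-Hochberg values over all genes tested, and a call needs one under 0.01 with at least a 2-fold change. Standard errors were taken from the F statistic. With 2 replicates against 2, an exact permutation test cannot go below p = 0.333, so none was made for single genes. The steps were tested on simulated data for light against darkness in the wildtype. Changes were placed only in genes with higher levels in wildtype darkness than those of TR_82321, TR_2068, TR_60889 and TR_54865. The simulation therefore does not cover calls at such low counts.

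The 7 genes, the lists and the tests were chosen with earlier results of these data known. Named beside the 7 are *ypr2*, neighbours within 3 genes that were called in a deletion contrast, the 2 genes with the highest Pearson's r of log2 CPM for each member, the listed transporter genes with the highest levels or largest called changes in darkness, and conidiation markers. TR_54372, TR_112230, TR_121579, TR_77481 and TR_77478 were picked after their values were seen. Levels for the comparison of likeness are log2(CPM + 0.5). Positions and names were matched through the RefSeq table (9115 of 9143 genes, all 7 members), of the assembly that the study used. The authors' fold changes were not used, and 324 genes were left out in the copy of their annotation used here. Scalings, filters, tools, thresholds, a replicate block and leaving out each library in turn were tried as alternatives.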

Additional observations from a re-analysis of the deposited data

Results flagged for a closer look

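TR_44956, an MFS permease gene, stood out because all its libraries moved in opposite directions in the 2 strains and in the 2 light conditions. Light against darkness gave a log2 fold change of 2.07 in the wildtype and -1.55 in ∆*ypr2*, and the deletion gave 3.28 in darkness and -0.34 in light. The oligopeptide transporter gene TR_44278 did so as well, with 1.19 and -0.16 for light and 1.19 and -0.15 for the deletion, where the negative values were small. For the MFS permease gene TR_119789 only the deletion effects were opposite, at 1.39 in darkness and -0.21 in light. These differences were not tested, since the deletion effects and their difference were among the values that chose the genes.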

How the results depend on the processing

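In ∆*ypr2* against wildtype in darkness, in light against darkness in either strain and in the difference of the deletion effects, every alternative kept the number of genes called within 1.5 times. Deletion in light was the exception, with 29 genes instead of 44 under quantile normalization with limma voom, 72 in a fit of just the 4 libraries, 75 with the adjusted limit at 0.05 and 100 with an unadjusted limit of 0.01, and 11 to 60 when 1 library was left out. Of the 7 genes the number called there was 0 to 1 when 1 library was left out, and it was 5 for light in the wildtype, 4 to 6 for light in ∆*ypr2*, 5 to 6 for the deletion in darkness and 3 to 5 for the difference of the deletion effects. Under limma voom the light contrast of the wildtype turned to 0.40 for TR_2068 and 0.52 for TR_54865, neither of them called before, and leaving out 1 library gave TR_54865 a range of -0.71 to 0.50, the latter without replicate 2 of wildtype darkness. The same setting ended the calls of TR_82321 in the wildtype (-1.86) and TR_54865 in ∆*ypr2* (-1.35), and it and the fit of only the 4 libraries ended the call of TR_54865 in darkness (1.77 and 2.17). The cause was not tested.

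The replicate numbers did not pair the samples (correlations of same-numbered deviations between -0.091 and 0.083). With a replicate block the deletion called 1328 genes in darkness (1332 without it) and 42 in light, the light contrasts called 2012 genes in the wildtype and 1434 in ∆*ypr2*, and 6 and 1 of the 7 genes stayed called in darkness and light. Taking CPM without length changed 6 of 28 places in the order of levels, all of them exchanges of adjacent places. With 5 genes on each side, 31% of the neighbours were called in darkness, against 34.3%, and 5.17% in light, against 2.86%. A comparison by protein similarity was not run. Counts of 2 to 15 a library limit TR_2068 and TR_60889 in 2 or 3 of the groups.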
